A study of Oryza sativa with 9 samples.

Results

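Alcohol dehydrogenase 2 and the 2 highly expressed non-symbiotic hemoglobins of rice roots, hemoglobin 2 and hemoglobin 1, are described here across every library of the series. These 3 gene models were taken by their identifiers, OS11G0210500, OS03G0226200 and OS03G0233900, out of 105692 models listed per library. They were chosen because earlier work on the same values had found them high in one line, so their own levels, order and differences are given as a description, with no test. RNA came from roots of soil-grown rice (Oryza sativa) of the cultivar Dongjin at an age of 7 days, kept under 10 h light and 14 h dark. The 3 groups were the line OE2, whose genotype label reads dgk1 OE (overexpression), the line dgk1, labelled dgk1 KO (knockout), and the wild type, WT, with 3 libraries each that the series describes as biological repetitions. Each altered line is a single line. The sources used here give neither the promoter used for overexpression, nor the mutation behind the knockout, nor the number of plants per library. The series asks how diacylglycerol kinase 1, which turns diacylglycerol into phosphatidic acid, bears on root architecture.

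Plant non-symbiotic hemoglobins, also called phytoglobins, bind oxygen very tightly and in their oxygenated form convert nitric oxide to nitrate. Alcohol dehydrogenase reduces acetaldehyde to ethanol at the end of fermentation and returns NAD+ to glycolysis. In roots short of oxygen, as in flooded soil, the genes for both kinds of protein are classic members of the low-oxygen response. Lactate dehydrogenase and pyruvate decarboxylase stand at the branch points of the same route, and sucrose synthase, amylases and glycolytic enzymes feed it.

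The libraries held between 8908397 and 12459460 fragments. Levels are given as FPKM, a fragment count divided by the length of the model and by depth, so levels of different genes can be set side by side. Along the third principal component of the tested models, OE2 replicate 2 lay at 32.8 and WT replicate 1 at 53.8. On the other side, dgk1 replicate 2 stood apart at -32.8, with the remaining libraries between -15.0 and -1.72. Of 4 genes fixed as root markers, RCc3 (OS02G0662000) and the silicon transporter gene LSI2 (OS03G0107300) lay between 832 and 2109 FPKM and between 197 and 298 FPKM over all libraries. The other two, NIP2-1 (OS02G0745100) and OS04G0684300, were listed at 0 throughout. The targeted gene, OS04G0634700, was also listed at 0 in all libraries. Model 25546, which carries a running number and covers that gene's span, held 48 fragments in the libraries labelled OE2, 791 in the dgk1 ones and 66 in the WT ones. RNA over this span was thus highest under the knockout label and not raised under the overexpression label. With the mutation and the promoter not given, whether the labels are right was not tested. Group names below are therefore only the names the libraries carry.

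Alcohol dehydrogenase 2 (ADH2, OS11G0210500) lies on chromosome 11, from 5745005 to 5748092 on the minus strand, in the coordinates of the files. The sources used here do not name the genome build. Its level was 1323, 2182 and 1316 FPKM in the libraries labelled OE2, 904, 854 and 979 FPKM in dgk1 and 699.7, 614 and 462 FPKM in WT. The 3 groups did not overlap, and OE2 replicate 2 stood well above the other 8 libraries. The group means were 1607 ± 498 FPKM in OE2, 912 ± 62.9 FPKM in dgk1 and 592 ± 120.4 FPKM in WT (SD, n = 3 each). The mean in OE2 was 2.71 times that in WT, and the mean in dgk1 1.54 times. By mean level it ranked 25th among the 37830 models with an OS identifier in OE2, 64th in dgk1 and 153rd in WT.

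Non-symbiotic hemoglobin 2 (HB2, OS03G0226200) lies on chromosome 3, from 6624980 to 6626080 on the minus strand. Its level was 353, 656 and 364 FPKM in the libraries labelled OE2, 114, 223 and 151 FPKM in dgk1 and 106, 64.9 and 38.8 FPKM in WT. Every OE2 library lay above every dgk1 library, while the lowest dgk1 library exceeded the highest WT library by a factor of only 1.08. The means were 458 ± 171 FPKM in OE2, 163 ± 55.3 FPKM in dgk1 and 69.8 ± 33.7 FPKM in WT. Of the 3 genes it had the widest range, with a mean in OE2 6.56 times and a mean in dgk1 2.33 times that in WT.

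Non-symbiotic hemoglobin 1 (HB1, OS03G0233900) lies 466783 bases away on the same chromosome, from 7092864 to 7093988 on the plus strand. Its level was 120.5, 226 and 131 FPKM in the libraries labelled OE2, 90.3, 119.7 and 86.0 FPKM in dgk1 and 79.1, 41.4 and 39.9 FPKM in WT. Here OE2 replicate 1 and dgk1 replicate 2 differed by a factor of only 1.01, so these neighbouring groups almost touched. Likewise, dgk1 replicate 3 exceeded WT replicate 1 by a factor of only 1.09. The means were 159 ± 58.0 FPKM in OE2, 98.7 ± 18.3 FPKM in dgk1 and 53.5 ± 22.2 FPKM in WT, or 2.97 and 1.84 times WT in OE2 and dgk1.

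**Figure D1:**
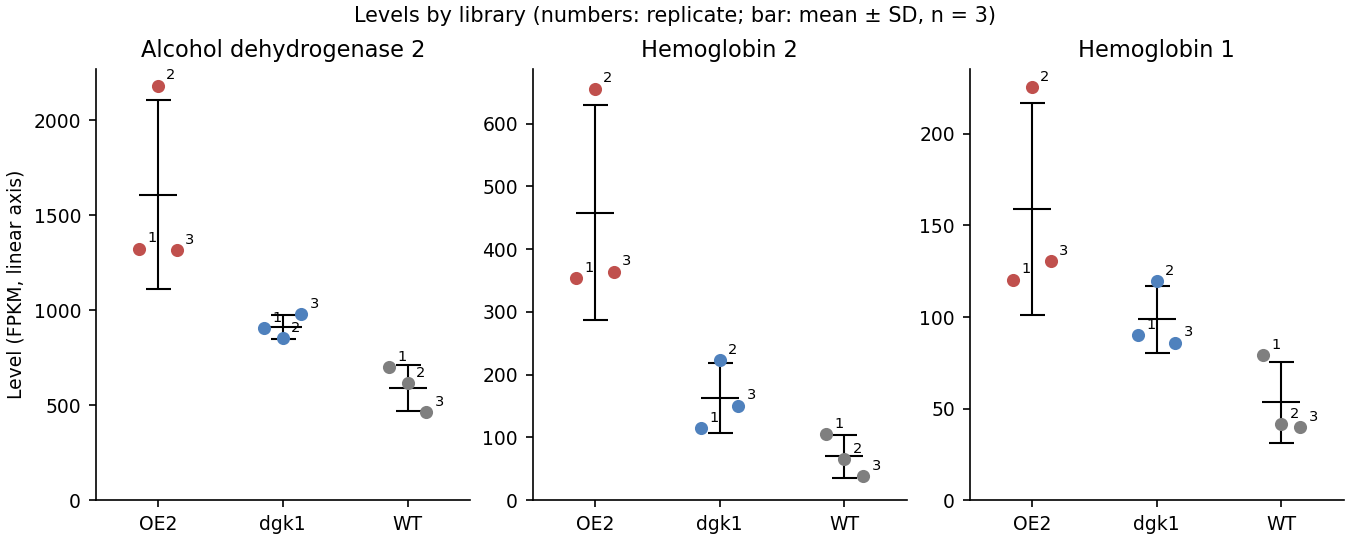
Levels of alcohol dehydrogenase 2, hemoglobin 2 and hemoglobin 1 in FPKM on linear axes that start at 0, by labelled line, with 1 point per library numbered by replicate and the mean ± SD of 3 libraries. OE2 replicate 2 is the highest library in every panel, at 2182, 656 and 226 FPKM.

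All 3 genes thus had the order OE2 above dgk1 above WT with no library out of place. This order without overlap was found for 129 of 22383 tested models, or 0.576%. Pair by pair, 12.0% of the tested models lay higher without overlap in OE2 than in WT, 8.39% in dgk1 than in WT and 13.3% in OE2 than in dgk1. Since the genes were chosen with the order known, nothing is read from these shares. On the log2(FPKM + 1) scale, the difference between OE2 and WT was 1.42 for ADH2, 2.75 for HB2 and 1.57 for HB1. The difference between dgk1 and WT was 0.64, 1.27 and 0.93 for the same genes, and that between OE2 and dgk1 0.78, 1.48 and 0.64. These differences share their control libraries and are not independent of each other. In RNA from roots, a higher level per cell and a larger share of the cells that express a gene cannot be told apart.

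The 3 genes were sampled deeply enough that counting added little to their spread. ADH2 rested on 9746 to 32190 fragments per library, HB2 on 421 to 4709 and HB1 on 350 to 1664. The exact Poisson 95% interval, which covers counting error only, reached at most 1.99%, 9.67% and 10.6% of the count to either side for ADH2, HB2 and HB1. The SD between replicates was 31.0% of the mean in OE2, 6.90% in dgk1 and 20.3% in WT for ADH2. For HB2 it was 37.5%, 34.0% and 48.3% in OE2, dgk1 and WT, and for HB1 36.5%, 18.6% and 41.5%. The libraries of one line thus differed by more than counting error for every gene, and the hemoglobins more than ADH2 in each line.

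That unevenness was large beside other genes of the root. The pooled SD within groups, on the log2(FPKM + 1) scale, was 0.57 for HB2, 0.45 for HB1 and 0.30 for ADH2, against a median of 0.17 over 2732 OS models whose mean was 50 FPKM or more. It was higher than in 98.1% of those models for HB2, 94.4% for HB1 and 82.5% for ADH2.

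The replicates of a line also moved alike in the 3 genes. In OE2, replicate 2 was 1.65, 1.83 and 1.8 times the mean of the other two libraries for ADH2, HB2 and HB1. In WT, replicate 1 was the highest library for every one of them, at 1.30, 2.04 and 1.94 times the mean of the other two. In dgk1 the picture was different: replicate 2 was the highest for both hemoglobins and the lowest for ADH2. In 6 of 9 libraries all 3 genes lay on the same side of their group mean. All OE2 libraries are among the 6. Deviations within a line cancel out, so a high replicate 2 tends to put the other OE2 libraries below the mean. The 6 agreements are therefore not independent, and the count was not set against other genes.

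**Figure D2:**
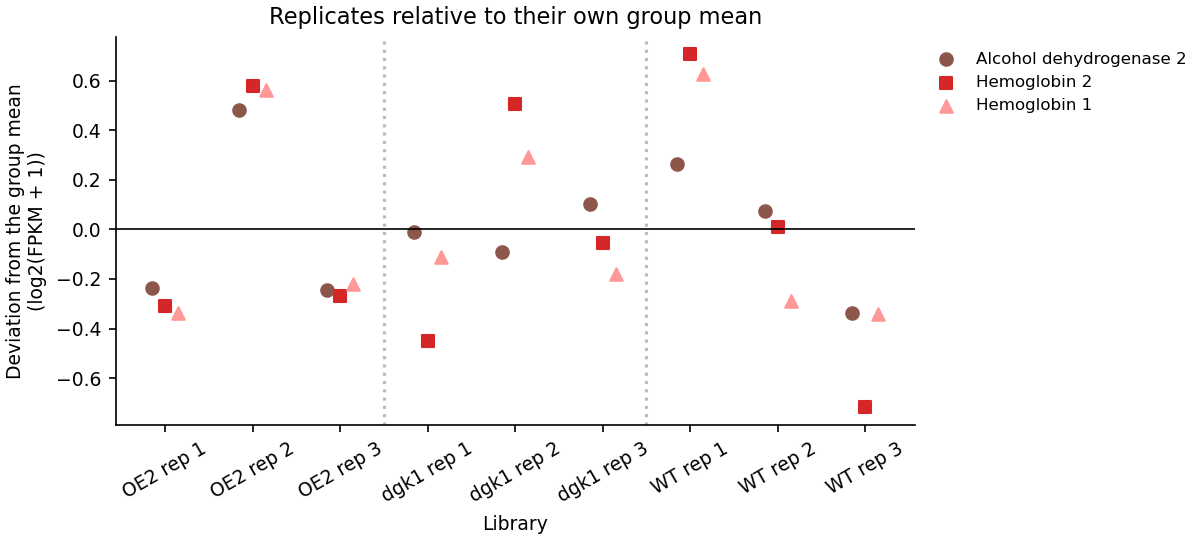
Deviation of each library from the mean of its own line, in log2(FPKM + 1), for the 3 genes. OE2 replicate 2 and WT replicate 1 are above their mean for all 3 genes, while dgk1 replicate 2 is 0.51 and 0.29 above for hemoglobin 2 and hemoglobin 1 and -0.09 for alcohol dehydrogenase 2.

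Over the 9 deviations, Pearson's r was 0.90 between HB2 and HB1 (Spearman's rho 0.78), 0.76 between ADH2 and HB2 (rho 0.77) and 0.76 between ADH2 and HB1 (rho 0.75). These are descriptions with no p, because the genes were partly chosen for this behaviour and their values in a library share one extraction and one depth. Without the 2 libraries farthest from the median of the first gene of a pair, r over the remaining 7 was 0.86 for the hemoglobins, and 0.58 and 0.57 for ADH2 with HB2 and HB1. For the hemoglobins WT replicates 1 and 3 were left out, so OE2 replicate 2 was kept. For both pairs with ADH2, OE2 replicate 2 and WT replicate 3 were left out, so WT replicate 1 was kept. The deviations were still taken from group means that include the left-out libraries. These r therefore keep part of the effect of those libraries and cannot show how the genes moved without them. WT replicate 1 and OE2 replicate 2 are also the libraries that stood apart on the third component. Without OE2 replicate 2, the mean in OE2 was 2.23 times that in WT for ADH2, 5.14 times for HB2 and 2.35 times for HB1. Without WT replicate 1, the OE2 mean was 2.99, 8.83 and 3.91 times that in WT.

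The ratio of HB2 to HB1 was higher in the libraries labelled OE2 than in the others, as a description. HB2 was 2.93, 2.91 and 2.79 times HB1 in the libraries labelled OE2, 1.27, 1.86 and 1.75 times in dgk1 and 1.34, 1.57 and 0.97 times in WT. OE2 kept almost the same ratio in all 3 libraries, replicate 2 included, and did not overlap the other lines, which overlapped each other. The ratio of ADH2 to HB1 overlapped between lines, at 9.67 to 11 in OE2, 7.13 to 11.4 in dgk1 and 8.84 to 14.8 in WT. ADH2 was 3.33 to 3.74 times HB2 in OE2, 3.83 to 7.92 times in dgk1 and 6.62 to 11.9 times in WT, where dgk1 and WT overlapped. The highest OE2 ratio lay just below the lowest in dgk1, so the gap between these neighbouring groups was small. All these ratios are built from the values by which the genes were chosen, and none was tested or set against other pairs of genes.

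Markers of green tissue also varied between these libraries. The summed level of 40 photosynthesis models fixed as markers of green tissue, 8 of them listed at 0 in every library, was 237 to 339 FPKM in OE2, 165 to 218 FPKM in dgk1 and 230.0 to 348 FPKM in WT. It was lowest in replicate 2 within OE2 and in replicate 1 within WT, the libraries where the 3 genes were highest, and highest in replicate 2 within dgk1. None of its 19 tested models was called by limma in OE2 or dgk1 against WT, with 5 and 4 (26.3% and 21.1%) at an unadjusted p under 0.05, where all tested models had 20.6% and 11.1%. Of the 19, 1 model, a chlorophyll a-b binding protein gene (OS09G0346500), rose in OE2 against dgk1. This gene alone lay at 209, 138 and 142 FPKM in OE2, 76.1, 87.6 and 66.2 FPKM in dgk1 and 102, 130 and 123 FPKM in WT. It thus made up a large part of the summed level, whose order between libraries rests in part on it. Its log2 difference in OE2 against WT was 0.44, above 0 unlike the median of the list. The median log2 difference of the 19 was -0.35 in OE2 and -0.42 in dgk1 against WT, below 0 where the 3 genes were above it. The part of green tissue in the levels of ADH2 and the hemoglobins was not tested.

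Of the 5 models described as globins, the other three gave a different picture. The two-on-two hemoglobin OS06G0591600 belongs to a truncated globin family whose fold differs from that of the non-symbiotic type. It lay at 112, 102 and 114 FPKM in the libraries labelled OE2, 130.1, 133 and 121 FPKM in dgk1 and 103, 106 and 116 FPKM in WT. Its OE2 and WT libraries overlapped, and limma did not call it in any comparison (OE2 against WT, log2 difference 0.01 ± 0.09, adjusted p = 0.976, and dgk1 against WT, 0.24 ± 0.09, adjusted p = 0.373). Hemoglobins 3 and 4 (OS03G0234000 and OS03G0234100) lie 2681 and 6059 bases downstream of HB1 and were almost silent. HB3 had 2 fragments in each line, and HB4 had 5 in OE2, 0 in dgk1 and 5 in WT, so neither passed the filter on low values. How fragments shared with these copies were counted is not known, which leaves the level of HB1 uncertain to that extent. HB2 made up 62.3% ± 3.82 of the summed globin FPKM in OE2, 41.0% ± 6.43 in dgk1 and 29.0% ± 8.46 in WT (SD, n = 3 each). Its share overlapped between dgk1, at 34.1% to 46.9%, and WT, at 19.9% to 36.6%. The share of HB1 was 21.7% ± 1.20, 25.4% ± 1.48 and 22.45% ± 4.28 in OE2, dgk1 and WT, with WT overlapping both other lines.

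Among alcohol dehydrogenases, the other well-expressed models were not called in OE2 against WT. The class-3 enzyme OS02G0815500, which in plants breaks down nitric oxide bound to glutathione, lay at 106, 98.8 and 91.6 FPKM in OE2, 106, 113 and 108 FPKM in dgk1 and 106, 98.9 and 113 FPKM in WT. All 3 groups overlapped (OE2 against WT, log2 difference -0.10 ± 0.09, limma adjusted p = 0.586). OS10G0159800, described as a putative alcohol dehydrogenase 2, averaged 41.1 ± 6.79, 39.4 ± 8.21 and 36 ± 15.9 FPKM in OE2, dgk1 and WT and was not called (0.25 ± 0.29, adjusted p = 0.674).

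Alcohol dehydrogenase 1, the neighbour of ADH2, could not be read. Its model OS11G0210300 (ADH1, chromosome 11, 5712671 to 5716288) lies 28716 bases from ADH2 and was listed at 0 in all 9 libraries. Model 8527, a numbered model with zinc-binding dehydrogenase and alcohol dehydrogenase domains, spans 5702556 to 5737447, so that it encloses ADH1 and ends 7557 bases before ADH2. It was listed at 0 in all 3 libraries labelled OE2, at 3.15, 2.80 and 3.0 FPKM in dgk1 and at 4.75, 3.08 and 2.76 FPKM in WT. In fragments the sums were 0, 260 and 269 in OE2, dgk1 and WT. It fell in OE2 against WT (limma adjusted p = 7.28e-05) and against dgk1 (limma adjusted p = 0.000123). The sources used here do not say how fragments that match both ADH1 and ADH2 were assigned, so the level of ADH2 is uncertain to that extent. No listed model shares its span with ADH2, HB2 or HB1.

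The enzymes around ethanol fermentation were then read from 15 lists matched on the files' descriptions, with the 3 genes themselves left out. Together they held 92 tested models. In OE2 against WT, 6 rose and 2 fell, against a background of 3.71% of 22383 tested models called higher and 3.24% lower, or 6.96% in either direction. Their share, 8.70%, was near that background. Their median log2 difference was 0.10, against 0.01 over all tested models. In dgk1 against WT limma called none of the 92, where 0.532% of all models were called higher and 0.143% lower, or 0.675% in all. At an unadjusted p under 0.05 there were 8 of the 92 (8.70%), below the 11.1% of all models. In OE2 against dgk1, 6 rose and 1 fell, where 3.20% and 3.15% of all models were called higher and lower, or 6.36% in all. The 7 calls were 4 without dgk1 replicate 1 and 3 without dgk1 replicate 3 or OE2 replicate 3.

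**Figure D3:**
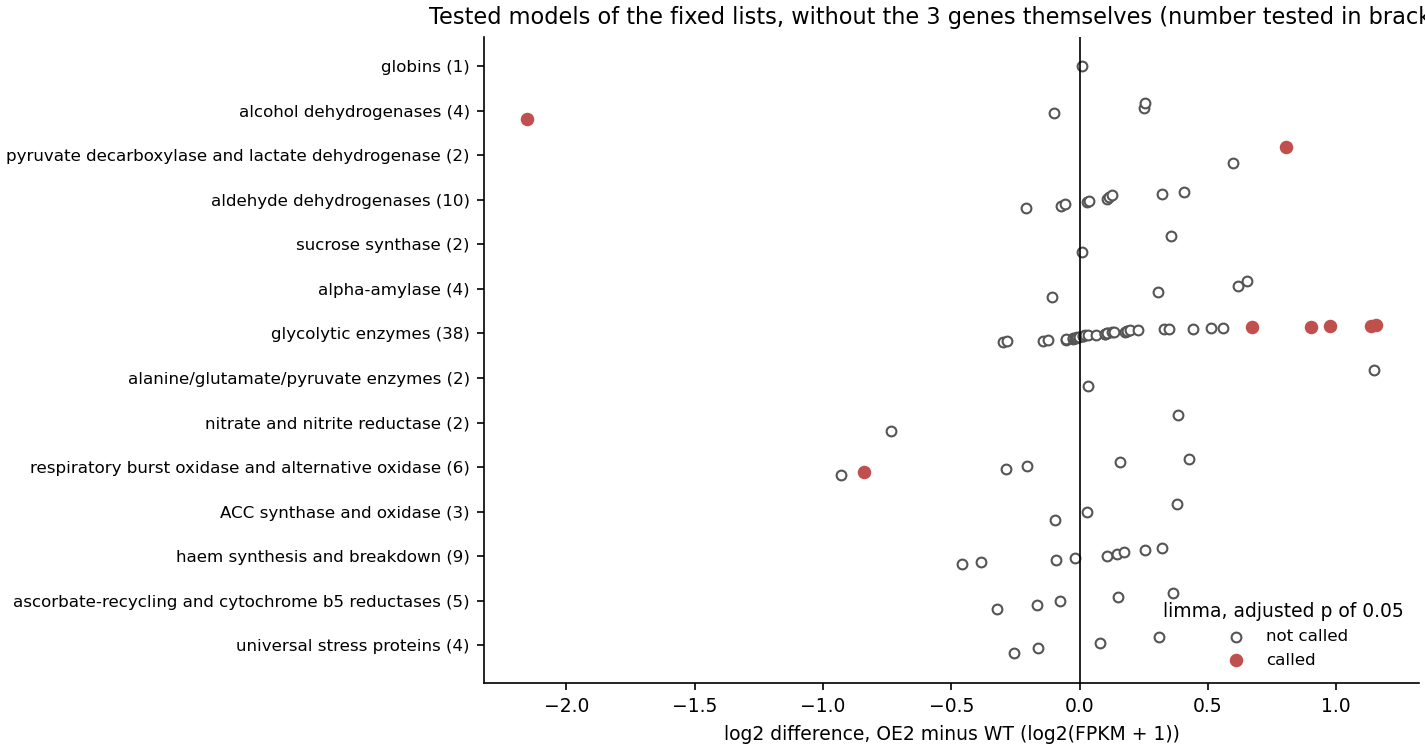
Log2 difference between OE2 and WT, on the log2(FPKM + 1) scale, for the 92 tested models of the lists, with the 3 genes left out and the number tested in brackets. Filled points passed limma's test at an adjusted p of 0.05. The glycolytic enzymes, 38 of the 92 models, hold 5 of the 6 rises.

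Lactate dehydrogenase, the other fermentative branch from pyruvate, rose in OE2 against both other lines. OS06G0104900 lay at 36.3, 45.9 and 39.2 FPKM in the libraries labelled OE2, 19.4, 22.6 and 24.1 FPKM in dgk1 and 24.6, 20.3 and 23.2 FPKM in WT. The OE2 libraries were above all others, and dgk1 and WT overlapped. Against WT the log2 difference was 0.80 ± 0.13 (limma adjusted p = 0.00643) and against dgk1 0.85 ± 0.13 (limma adjusted p = 0.00484). The second model, OS02G0105400, averaged 4.06 ± 0.988, 2.62 ± 0.107 and 2.39 ± 0.987 FPKM in OE2, dgk1 and WT and was not called. The 3 models described as pyruvate decarboxylase, which makes the acetaldehyde that alcohol dehydrogenase reduces, were between 0 and 0.835 FPKM in every library and were not tested. Numbered models that overlap PDC1 or PDC2 reached at most 0.487 FPKM.

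Of 38 models on the glycolytic list, 5 rose in OE2 against WT and none fell. Among all tested models, 3.71% were called higher and 3.24% lower. At an unadjusted p under 0.05 there were 6 of the 38 (15.8%), below the 20.6% of all models. Hexokinase-8 (OS01G0190400), which phosphorylates glucose, lay at 21.8, 18.7 and 24.1 FPKM in OE2, 11.1, 9.55 and 7.85 FPKM in dgk1 and 8.78, 8.91 and 9.98 FPKM in WT. It rose against WT (1.14 ± 0.15, limma adjusted p = 0.00167) and against dgk1 (1.11 ± 0.15, limma adjusted p = 0.00195), and unlike the 3 genes it was lowest in replicate 2 within OE2. Cytoplasmic fructose-bisphosphate aldolase 3 (OS01G0905800), which splits the hexose into trioses, lay at 1219, 1733 and 1129 FPKM in OE2, 843, 809.9 and 1006 FPKM in dgk1 and 707, 551 and 552 FPKM in WT. It had the same order without overlap as the 3 genes, and OE2 replicate 2 and WT replicate 1 were again the highest of their lines. It rose in OE2 against WT (1.16 ± 0.18, limma adjusted p = 0.00503), while dgk1 against WT was not called (0.56 ± 0.18, limma adjusted p = 0.298).

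OS08G0345700 encodes the alpha subunit of a phosphofructokinase that uses pyrophosphate in place of ATP. It lay at 178, 262 and 188 FPKM in OE2, 119.7, 128 and 144 FPKM in dgk1 and 119.0, 108 and 103 FPKM in WT, and rose in OE2 against WT (0.90 ± 0.15, limma adjusted p = 0.00769). Cytosolic glyceraldehyde-3-phosphate dehydrogenase 3 (OS02G0601300) lay at 402, 599 and 359.8 FPKM in OE2, 289, 247 and 292 FPKM in dgk1 and 275, 200.3 and 205 FPKM in WT. It rose in OE2 against WT (0.98 ± 0.20, limma adjusted p = 0.0227). The call did not hold in 5 of 11 alternatives, among them leaving out OE2 replicate 1, WT replicate 2 or WT replicate 3 (limma adjusted p of 0.0518, 0.0651 and 0.0829). The ATP-dependent phosphofructokinase OS05G0524400 averaged 57.3 ± 10.9, 34.7 ± 3.77 and 35.4 ± 4.71 FPKM in OE2, dgk1 and WT (OE2 against WT, 0.67 ± 0.17, limma adjusted p = 0.0484). This model was named after its values were seen, and its call was lost in 7 of 11 alternatives, among them leaving out WT replicate 1 or 3 or OE2 replicate 2 or 3 (limma adjusted p of 0.126 to 0.162).

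The remaining lists held few calls. Pyruvate phosphate dikinase (OS05G0405000), which links pyruvate and phosphoenolpyruvate, lay at 540.4, 318 and 689 FPKM in OE2, 99.9, 204 and 71.1 FPKM in dgk1 and 151, 289 and 248 FPKM in WT. It rose in OE2 against dgk1 (2.11 ± 0.43, limma adjusted p = 0.0226) but was not called against WT (1.15 ± 0.43, limma adjusted p = 0.179). Its call was lost without dgk1 replicate 1 or 3 or OE2 replicate 1 or 3 (limma adjusted p of 0.0775 to 0.0908). Its lowest OE2 and WT libraries were replicate 2 and replicate 1, those where the 3 genes were highest. Glutamate decarboxylase, on the same list, was not called. Another aldolase of the glycolytic list, OS08G0120600, averaged 108 ± 15.7, 53.0 ± 7.67 and 102 ± 27.4 FPKM in OE2, dgk1 and WT. It rose in OE2 against dgk1 (1.01 ± 0.20, limma adjusted p = 0.0197), a call lost without dgk1 replicate 2 or 3 or OE2 replicate 2 or 3 (0.0717 to 0.0803), and was not called against WT (0.11 ± 0.20, limma adjusted p = 0.823). The alternative oxidase OS02G0700400 fell in OE2 against WT at a low level (1.78 ± 0.415, 1.94 ± 0.199 and 4.03 ± 1.19 FPKM in OE2, dgk1 and WT, limma adjusted p = 0.0406), a call lost without any single library of the comparison except WT replicate 3 (limma adjusted p of 0.0679 to 0.132). Pyruvate phosphate dikinase, this aldolase and the oxidase were named after their values were seen.

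In OE2 against WT limma called none of 10 aldehyde dehydrogenases, 2 sucrose synthase, 4 alpha-amylase, 2 nitrate reductase and 3 ACC synthase and oxidase models. The same held for 9 models of haem synthesis and breakdown, which supply and remove the cofactor of hemoglobin, 5 ascorbate-recycling and cytochrome b5 reductases, and 4 universal stress proteins. Of the alpha-amylases 3 of 4 had an unadjusted p under 0.05, of the haem models 2 of 9, of the reductases 1 of 5, and of the sucrose synthase models 1 of 2, against 0 in the rest of these lists. Over all tested models the share was 20.6%, so the haem models and the reductases were at the background. The respiratory burst oxidase model OS01G0360200 missed the threshold in OE2 against WT (limma adjusted p = 0.0507), as did the other 4 alternative oxidase models. No description matched the oxygen-sensing cysteine oxidases. The lists were matched by words, so they hold some models of other function, such as semialdehyde dehydrogenases and an enolase-phosphatase.

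The genes most like the 3 were then sought among 3049 OS models with a described function and a mean of at least 5 FPKM. The measure was Pearson's r over the 9 libraries between log2(FPKM + 1) and the mean z-score of ADH2, HB2 and HB1, each of which had r of at least 0.98 with that mean. The closest was fructose-bisphosphate aldolase 3 (r = 0.97), followed by a GDSL lipase-like gene (OS06G0725100, 0.95) and the pyrophosphate-dependent phosphofructokinase subunit (0.94). Then came protein phosphatase 2C 62 (OS07G0507000), a laccase (OS12G0258700), Scarecrow-like protein 1 (OS01G0881500) and glyceraldehyde-3-phosphate dehydrogenase 3, all at 0.94. A glutathione S-transferase (OS10G0529500, 0.94), a NAC transcription factor (OS08G0562200, 0.93) and OBERON 3 (OS03G0239200, 0.93) closed the first 10. In all, 29 of the 3049 had r over 0.9. The glycolytic list held 24 of the 3049 candidates (0.787%) and 3 of the first 10, a count that was not tested. The laccase, of a family that couples lignin precursors, lay at 19.7, 50.3 and 31.4 FPKM in OE2, 13.2, 20.8 and 8.87 FPKM in dgk1 and 5.80, 5.63 and 5.26 FPKM in WT. OE2 and dgk1 overlapped, and both lay above WT. Its spread between the WT libraries was small, unlike that of the hemoglobins. This ranking uses the same differences as the choice of the 3 genes and is a description.

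**Figure D4:**
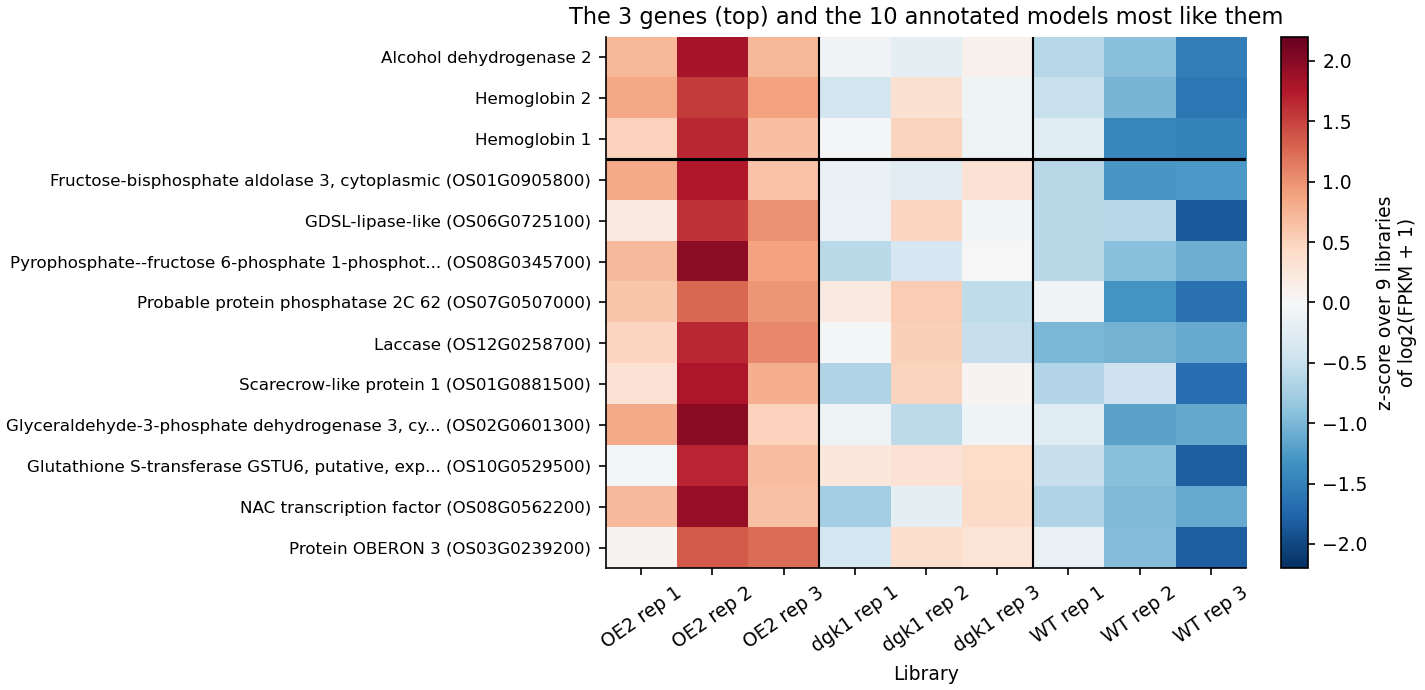
z-scores over the 9 libraries of log2(FPKM + 1) for the 3 genes (top) and the 10 OS models most like them, with the libraries in columns by line. All rows are highest in OE2 replicate 2.

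Between replicates alone, other genes came first. By r of the deviations from the group means, the 5 closest were a germin-like protein (OS02G0491600, r = 0.98), a double-stranded RNA-binding protein (OS02G0639000, 0.95), an aspartyl protease (OS10G0538200, 0.94), a methyltransferase of tocopherol and plastoquinone synthesis (OS12G0615400, 0.94) and the first enzyme of the shikimate pathway (OS07G0622200, 0.94). The germin-like protein lay at 7.23, 14.6 and 8.07 FPKM in OE2, 6.81, 10.2 and 8.67 FPKM in dgk1 and 6.52, 4.94 and 3.08 FPKM in WT. The shikimate enzyme lay at 223, 295 and 219.8 FPKM in OE2, 232, 238 and 236 FPKM in dgk1 and 295, 207 and 195 FPKM in WT. Its lines overlapped, so it shared the high OE2 replicate 2 and WT replicate 1 without the order of the lines. None of the first 10 over all libraries was among these 5. In all, 16 of the 3049 had r over 0.9 with the mean of the scaled deviations of the 3 genes. ADH2, HB2 and HB1 themselves had 0.90, 0.95 and 0.95 with that mean, so the closest other genes followed it as closely.

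Models near the 3 genes were examined because OE2 differed from WT at 18.2% of 1302 tested models of chromosome 11, against 6.96% of all and 3.42% of 2837 on chromosome 3. Within 200 kb of ADH2, 3 of 22 tested models, or 13.6%, were called in OE2 against WT. Besides model 8527 these were the dirigent protein OS11G0214400, of a family that steers the coupling of lignan precursors, and model 8547, with no described function. The dirigent protein gene was at 9.90, 3.74 and 6.04 FPKM in OE2 and listed at 0 in every dgk1 and WT library (limma adjusted p = 0.000259). Model 8547 fell to 1.95 ± 0.611 FPKM in OE2, against 4.27 ± 0.530 FPKM in WT (limma adjusted p = 0.0208), a call lost without WT replicate 3 (0.0800). Both were named after their values were seen. Models that are present in one line and at 0 in the other therefore stand on both sides of ADH2, and their part in its level was not tested.

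Within 200 kb of HB2, 3 of 29 tested models, or 10.3%, were called in OE2 against WT. The share was 6.96% over all tested models and 3.42% over those of chromosome 3. At an unadjusted p under 0.05 there were 9 (31.0%), where all tested models had 20.6%. Allene oxide synthase 2 (OS03G0225900), of jasmonate synthesis, lies 14430 bases from HB2 and had 106, 92.7 and 149 FPKM in OE2, 57.7, 78.6 and 60.7 FPKM in dgk1 and 51.5, 72.2 and 58.9 FPKM in WT. It rose in OE2 against WT (0.90 ± 0.21, limma adjusted p = 0.0350), and was lowest in replicate 2 within OE2. Its call was lost without OE2 replicate 1 or 3 or WT replicate 1 or 3 (limma adjusted p of 0.0805 to 0.106). OS03G0228800 fell (10.6 ± 0.746 FPKM in OE2, against 17.8 ± 2.79 FPKM in WT, limma adjusted p = 0.0148), a call lost without OE2 replicate 1 or 2 or WT replicate 3 (0.0521 to 0.0586). OS03G0229000, named after its values were seen, was listed at 0 in OE2, at 3.91, 3.47 and 4.36 FPKM in dgk1 and at 2.78, 3.03 and 2.98 FPKM in WT (limma adjusted p = 1.53e-05).

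Within 200 kb of HB1, 2 of 39 tested models, or 5.13%, were called in OE2 against WT, where 6.96% of all were. At an unadjusted p under 0.05 there were 8 (20.5%), at the 20.6% of all tested models. The 2 called models were both lower in OE2. They were U-box protein 75 (OS03G0232600, 22.5 ± 1.44 FPKM in OE2, against 33.8 ± 6.36 FPKM in WT, limma adjusted p = 0.0456) and OS03G0231950 (5.93 ± 0.518 FPKM in OE2, against 10.6 ± 1.10 FPKM in WT, limma adjusted p = 0.0284). Both calls were lost without any single library of the comparison except WT replicate 2 (limma adjusted p of 0.0646 to 0.145). A class III peroxidase (OS03G0234500), 13140 bases from HB1 and named after its values were seen, lay at 74.8, 128 and 77.2 FPKM in OE2, 34.1, 59.6 and 76.0 FPKM in dgk1 and 61.6, 36.1 and 17.2 FPKM in WT. Like HB1 it was highest in OE2 replicate 2 and, within WT, in replicate 1, but dgk1 overlapped both other lines. It was not called in OE2 against WT, which did not overlap (1.39 ± 0.46, limma adjusted p = 0.132). In dgk1 against WT limma called no model in the 3 windows, with 3, 3 and 1 at an unadjusted p under 0.05 around ADH2, HB2 and HB1. These are 13.6%, 10.3% and 2.56% of the windows, against 11.1% of all tested models.

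**Figure D5:**
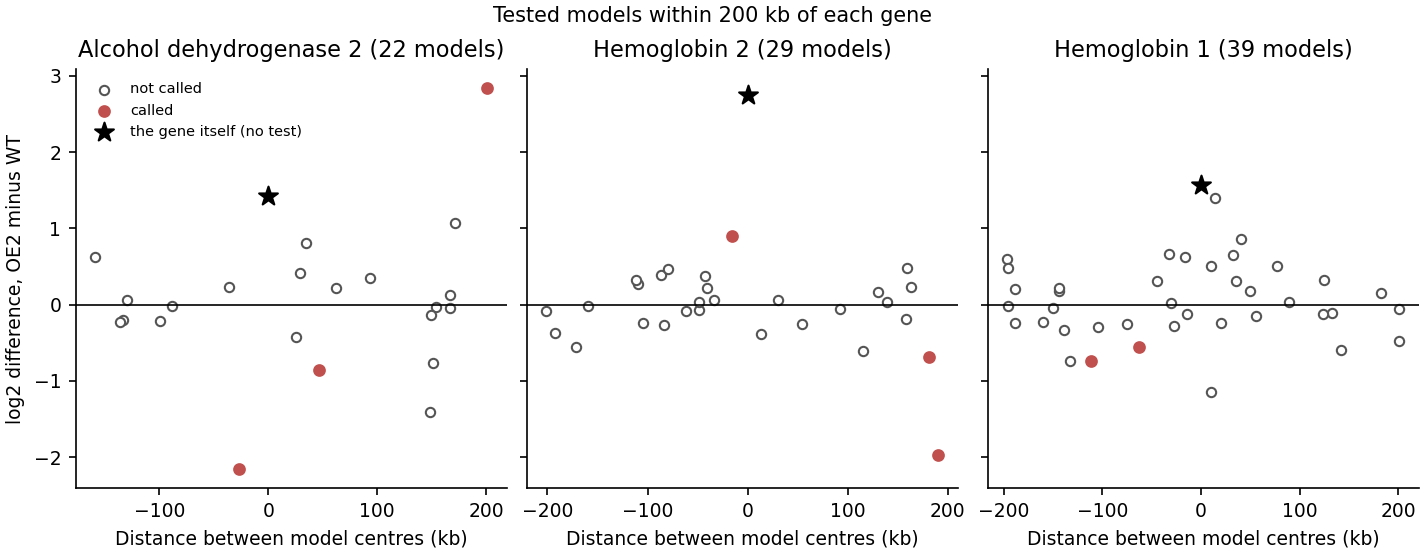
Log2 difference between OE2 and WT, on the log2(FPKM + 1) scale, of the tested models within 200 kb of ADH2, HB2 and HB1, by the distance between model centres in kb. Filled points passed limma's test and the star is the gene itself. The windows hold 22, 29 and 39 tested models, of which 3, 3 and 2 were called, where 6.96% of all tested models were.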

How the data were processed

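RNA-seq of rice roots gave 1 table per library, with 1 value for each gene model. The deposited values were taken as FPKM because of how they scale with the listed length; neither labels nor headers name the unit. The submitters' processing notes name CASAVA 1.8 and HISAT2. The sources used here do not give the counting tool, genome build, annotation or use of strand. Multiplied by length, 100% of values were whole multiples of 1 unit per library (tolerance 0.01), which gave whole fragments and the depth. The authors' depth term equals the product of a median-of-ratios size factor and the geometric mean of the libraries' fragment totals, so the deposited FPKM carry a scaling between libraries.

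limma 3.58.1 (R 4.3.3, statmod 1.5.0), with trend and robust variance, was run on log2(FPKM + 1) for the 22383 models that reached 1 FPKM in 3 or more of the 9 libraries, of which 13945 carry an OS identifier. One fit held all libraries, with group and no covariate. A call is a two-sided limma p, adjusted by Benjamini-Hochberg over all tested models, under 0.05. Differences on the log2(FPKM + 1) scale understate low genes; they are ± SE, and means are ± SD. Replicates of a line differed beyond sampling noise (chi-square per degree of freedom 5.01 to 18.7), so each counted as 1 sample. The p-values set a difference between group means against the spread between libraries within lines, pooled over the 3 groups. With a single line per label, they do not cover variation between lines.

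The 3 genes and the lists were chosen with earlier results of these data known. Named genes were the globins and alcohol dehydrogenases, up to 3 called members per list and comparison with at least 5 FPKM, the models most like the 3 genes, and up to 4 called models per window with at least 10 FPKM. Others are marked as named after their values were seen. 

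Alternatives were no filter, a filter of 5 FPKM, a pseudocount of 0.1, the 6 libraries of a comparison alone, a replicate block, each library left out, and other scalings for the 3 genes.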

Additional observations from a re-analysis of the deposited data

How the results depend on the processing

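Since the libraries of the 3 genes did not overlap between lines, leaving one out could not turn the sign of a difference, and these ranges are no sign of stability. Leaving out single libraries gave 1.18 to 1.55 for ADH2, 2.39 to 3.10 for HB2 and 1.29 to 1.88 for HB1 in OE2 against WT, 0.47 to 0.77, 0.91 to 1.62 and 0.76 to 1.24 in dgk1 against WT, and 0.53 to 0.90, 1.19 to 1.73 and 0.36 to 0.81 in OE2 against dgk1. The number of called models, 1557 in OE2 against WT, 151 in dgk1 against WT and 1423 in OE2 against dgk1, was 794, 77 and 706 with a filter of 5 FPKM, where fewer models were tested. It was 96 in dgk1 against WT with its 6 libraries alone. Without single libraries it ranged from 1100 to 1638, 80 to 136 and 1034 to 1234, and in dgk1 against WT it was under 100 without any library other than WT replicate 1. Of the 92 list members, 8 were called in OE2 against WT, 5 with the 6 libraries alone and 6 to 8 without single libraries. In OE2 against dgk1, 7 were called, and 3 to 7 without single libraries, with the lowest count without dgk1 replicate 3 or OE2 replicate 3. In dgk1 against WT 0 were called by limma throughout. With the replicate block the called models were 1156, 73 and 1129, and the called list members in OE2 against dgk1 were 4. Libraries with the same number shared only that number: their deviations correlated at -0.16 to 0.06. The causes were not tested. Of 28 calls of named models, 14 held in every alternative that gave them a value, and none changed sign.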
